A study of Mus musculus with 3 samples.

Results

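GFP-positive cones of the Pde6ccpfl1 mouse line were set against GFP-positive cones of the wildtype line. Members were the wells of the 2 sorted plates, found by the plate name in each column, that passed a floor of 500 genes with a count and a ceiling of 30% mitochondrially encoded counts. These were 61 of 71 Pde6ccpfl1 wells and 52 of 61 wildtype wells, so 113 of the 183 wells kept in the series. The wildtype library carries the Chrnb4-GFP name, a reporter driven by a nicotinic receptor gene, and the Pde6ccpfl1 library carries the name Pde6c-GFP. Retinas of both lines were labelled postnatal day 12. The plate names also hold the tags P10 for Pde6ccpfl1 and P11 for wildtype, whose meaning is not stated. Cells were taken from papain-dissociated retina, stained with a dye for dead cells and sorted into 96-well plates, and the library protocol drew on SMARTseq2 and MARS-seq. The number of animals behind each plate is not given. There was 1 plate and 1 library per genotype, so genotype, plate and plate tag cannot be told apart, and no test between genotypes was made. Another plate of the series, from Cnga3-/- mice that lack a channel subunit of the cone light response, is used below to define well positions and for side-by-side values. It was also labelled postnatal day 12, with the tag P08.

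Cones are the photoreceptors of daylight and colour vision. Light activates a cone opsin, the opsin activates cone transducin, and transducin releases the catalytic subunit PDE6C from its inhibitory subunit PDE6H. PDE6C breaks down cGMP, cyclic nucleotide-gated channels of CNGA3 and CNGB3 close, and arrestin, a receptor kinase, recoverin and the guanylate cyclase system end the response. The cpfl1 mutation disrupts Pde6c, and its cones lose function early and degenerate. Cone nuclei in such retinas are known to lie out of place, and the series concerns cone migration.

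The kept wells held 295011 counts in Pde6ccpfl1 and 273080 in wildtype. A Pde6ccpfl1 well held 1106 to 16039 counts (median 3796) and a median of 1376 genes, and a wildtype well 1061 to 11671 counts (median 4895) and 1829 genes. Counts were summed per plate and scaled to the plate total, as CPM. All intervals are 95%. Those of CPM and of ratios treat each count as independent and leave out the spread between wells and between plates. How molecular identifiers were used is not given, so whether 1 molecule gave several counts is not known. A gene with 0 counts in a plate was set there to a floor of 3 counts, which is 10.2 CPM in Pde6ccpfl1 and 10.99 CPM in wildtype. A fold above the floor takes the count of the other plate as exact, so it is not a 95% limit. Genes were compared where they had at least 50 counts over both plates and were counted in 20% or more of the kept wells of 1 plate, which left 1600 genes.

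Most of the compared genes peaked in a single well, and that well lay at the same place on each plate. Kept wells of both plates shared 43 of the 96 plate positions. Over these positions 1028 genes had at least 25 counts in each plate, and 901 of them (87.6%) had their highest CPM at the same position in both. To define positions outside the comparison, a gene was called tied to a position if it had at least 20 counts in the Cnga3-/- plate and its highest well there held at least 20% of them. Of the 1600 compared genes 1268 were tied, 239 were not tied, and 93 had too few Cnga3-/- counts. Where the position was kept in both plates, 92.8% of tied genes peaked there in Pde6ccpfl1 and 94.1% in wildtype. Tied genes held 49.0% of Pde6ccpfl1 counts and 49.8% of wildtype counts. The tie rests on 1 well of 1 plate, so a gene that is high in a single Cnga3-/- cell can also meet it. Only the 70 kept Cnga3-/- wells were used, so a gene whose position was not kept there can be classed as not tied. Whether the shared positions come from library construction, indexing or the assignment of well barcodes was not tested. A level of a tied gene may therefore not measure the cell sorted into that well.

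Kif23, a kinesin of the midbody in cell division, shows the pattern. In the Pde6ccpfl1 plate well F01 stood at 336622 CPM and held 52.3% of the 9007 counts of the gene, and the median of the other 60 wells was 14622 CPM. The Cnga3-/- plate also peaked at F01, with 56.8% of its 6608 counts. No F01 well was kept in wildtype, where Kif23 had 27 counts and a median of 0 CPM. Esrp2, a regulator of epithelial splicing, showed the converse. Its Cnga3-/- position C08 was kept in wildtype alone, at 119264 CPM against 5103 CPM in the median of the other wells, and the Pde6ccpfl1 plate had no kept C08 well and a median of 1662 CPM. Myo6, a myosin that walks towards the minus end of actin, peaked at D08 in both, at 66413 CPM in Pde6ccpfl1 and 66179 CPM in wildtype. Its median elsewhere was 1152 CPM in Pde6ccpfl1 and 2491 CPM in wildtype. A plate that held the peak well also held the higher level in its other wells for Kif23 and Esrp2.

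**Figure D1:**
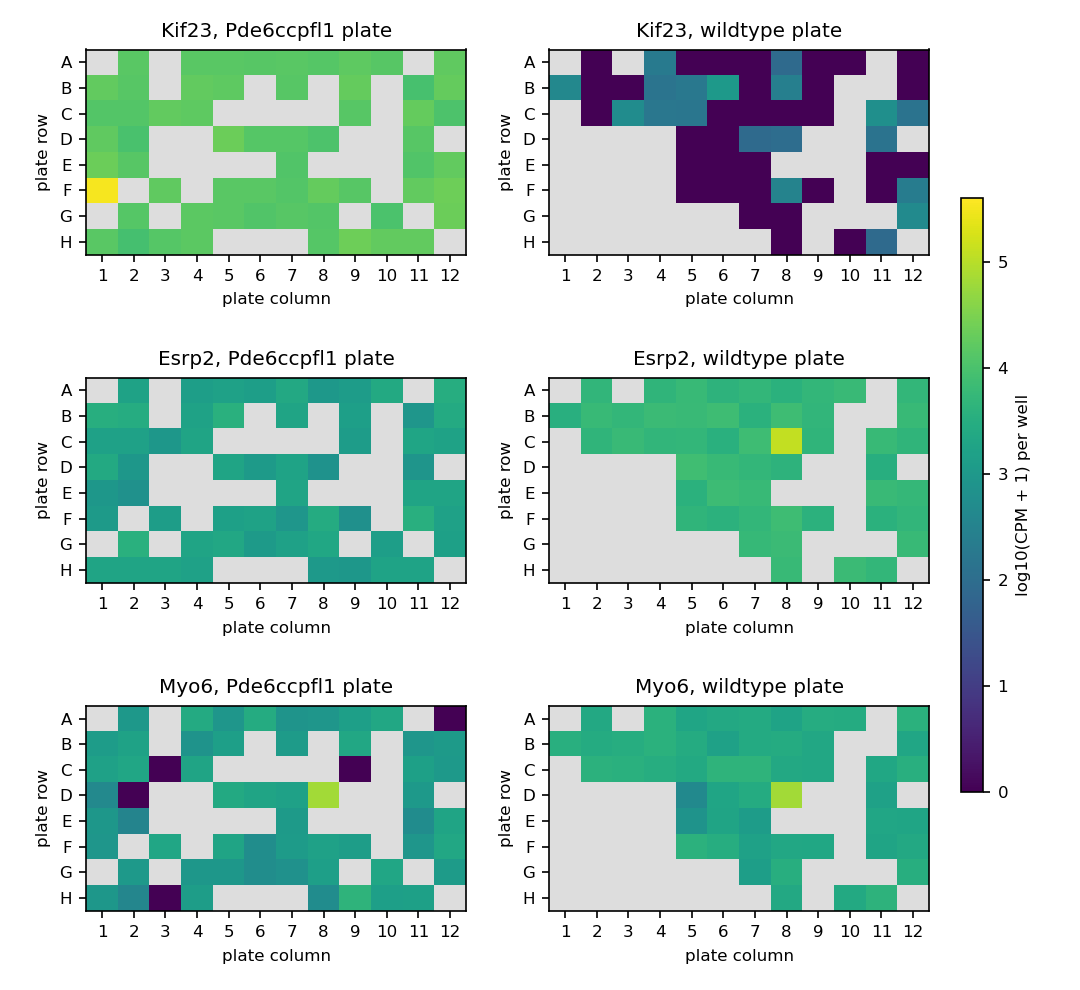
Per-well level of 3 genes on the 96-well layout (plate rows A to H, columns 1 to 12) as log10(CPM + 1), with positions that hold no kept well in grey. Kif23 peaks at F01 in the Pde6ccpfl1 plate, Esrp2 at C08 in the wildtype plate, and Myo6 at D08 in both.

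Over all compared genes, 163 were at least 2-fold higher in Pde6ccpfl1 (10.2%) and 244 at least 2-fold lower (15.2%), with a median log2 ratio of -0.16. The direction followed the position. Of the 165 genes tied to a position kept in the Pde6ccpfl1 plate alone, 129 were 2-fold higher and 1 lower, with a median log2 ratio of 2.67. Of the 55 genes tied to a position kept in wildtype alone, 0 were higher and 47 lower, with a median of -1.74. The 1043 genes tied to a position kept in both plates had 10 higher and 149 lower (median -0.25), and the 239 genes that were not tied had 22 higher and 20 lower (median -0.11). Thus 79.1% of the genes at least 2-fold higher were tied to positions that the wildtype wells lack, beside 165 of all 1600 compared genes. Of those lower, 61.1% were tied to positions present in both, a share close to that over all compared genes (1043 of 1600). The 27 other lower genes and 2 other higher genes had too few Cnga3-/- counts to be placed.

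Among positions kept in both plates, the ratio of a gene followed the depth of its well. For each of the 43 positions, the share of library counts held by that well was compared between plates, beside the median log2 ratio of the genes tied to it. Pearson's r was 0.98 and Spearman's rank correlation 0.97 over these 43 positions, given as a description, since each well's counts include those of the genes tied to it. Well B05 held 0.463% of Pde6ccpfl1 counts and 2.12% of wildtype counts, and 14 of the 15 genes tied to it were 2-fold lower. Well F05 held 3.26% and 2.17%, and 3 of its 45 tied genes were 2-fold higher and 1 lower. The 25 positions with a smaller share in Pde6ccpfl1 held 144 of the 149 lower genes, beside 557 of the 1043 genes tied to the 43 positions.

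**Figure D2:**
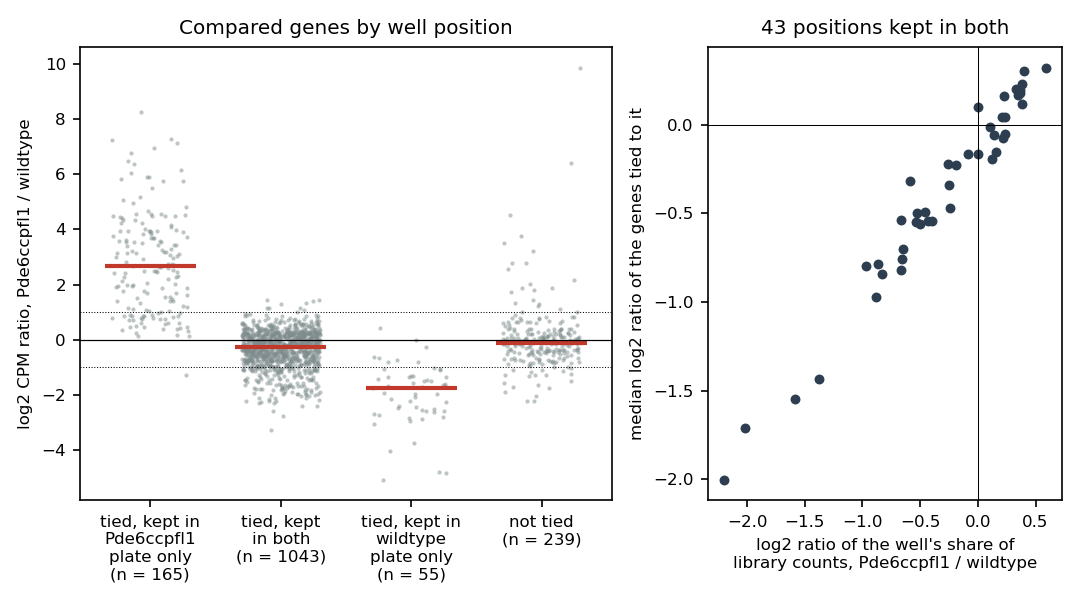
Left, log2 CPM ratio (Pde6ccpfl1 over wildtype) of compared genes by whether their position was kept in each plate, with medians as red bars and 2-fold as dotted lines. Right, for the 43 positions kept in both, the median log2 ratio of tied genes against the log2 ratio of the well's share of library counts, which rise together (Spearman's rank correlation 0.97).

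The cone markers were counted over many Pde6ccpfl1 wells and were more abundant in that plate. Arr3 (cone arrestin), Gngt2 and Gnat2 (the gamma and alpha subunits of cone transducin) and Pde6h together had 133 counts in Pde6ccpfl1 and 19 in wildtype, or 451 and 69.6 CPM. The ratio was 6.48 (3.99 to 11.1). Per kilobase of exon, the 4 genes stood at 29.9 CPM in Pde6ccpfl1 and 4.62 CPM in wildtype. Olfactory receptor genes, which photoreceptors are not known to use, stood at 4.15 and 4.48 CPM per kilobase. Of their 4292 wildtype counts, 2440 came from 28 receptors tied to a well position, while the cone markers held none that were tied. Arr3 had too few Cnga3-/- counts to be placed. Pde6h, which gave 16 of the 19 wildtype counts, was not tied by the rule and yet peaked at E12 in both plates. It stood there at 1837 CPM in Pde6ccpfl1 and 1949 CPM in wildtype, with 14.0% and 31.25% of its counts. The ratio stayed within its interval in each of the 9 alternatives.

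Single wells showed the same difference. Of 61 Pde6ccpfl1 wells, 12 had no count of the 4 markers, 21 had 1 marker, 22 had 2, 5 had 3 and 1 had all 4. Of 52 wildtype wells, 41 had none and 11 had 1. A count of any marker was found in 80.3% of Pde6ccpfl1 wells and 21.2% of wildtype wells. After thinning each well to 1400 counts, which left 54 and 48 wells, the shares were 46.3% (32.6 to 60.4) and 12.5% (4.73 to 25.2) with exact Clopper-Pearson intervals. All 6 thinned wildtype wells with a marker held Pde6h, and none held the other 3. At that depth the 99th percentile over single olfactory receptor genes was 13.1% of Pde6ccpfl1 wells and 16.7% of wildtype wells, which is a share for 1 gene and not for any of 4. Behind the label of cone there was thus a marker count in 49 of 61 Pde6ccpfl1 wells, or 25 of 54 after thinning, and in 11 of 52 wildtype wells, or 6 of 48 after thinning. Gngt2 and Gnat2 were at 0 in wildtype.

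The proximal promoters of 4 cone genes are shown because these genes were higher together in the Pde6ccpfl1 wells. Each is the 250 bases before the RefSeq start (GRCm38.p6), written 5′ to 3′ on the gene's strand. Capitals mark TAATC or its reverse complement GATTA, the core of sites bound by photoreceptor homeodomain factors such as CRX.
Opn1sw (chr6:29380514-29380763, minus strand): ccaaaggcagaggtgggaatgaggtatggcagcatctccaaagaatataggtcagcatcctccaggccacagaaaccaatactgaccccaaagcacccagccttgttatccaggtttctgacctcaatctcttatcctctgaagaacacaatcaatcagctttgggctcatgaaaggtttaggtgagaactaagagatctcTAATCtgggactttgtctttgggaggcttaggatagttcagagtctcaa
Gnat2 (chr3:108092816-108093065, plus strand): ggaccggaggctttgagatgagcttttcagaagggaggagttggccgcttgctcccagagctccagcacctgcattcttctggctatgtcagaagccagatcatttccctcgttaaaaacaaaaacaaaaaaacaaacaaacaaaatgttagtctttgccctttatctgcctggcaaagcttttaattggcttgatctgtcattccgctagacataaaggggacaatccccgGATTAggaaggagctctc
Arr3 (chrX:100605247-100605496, plus strand): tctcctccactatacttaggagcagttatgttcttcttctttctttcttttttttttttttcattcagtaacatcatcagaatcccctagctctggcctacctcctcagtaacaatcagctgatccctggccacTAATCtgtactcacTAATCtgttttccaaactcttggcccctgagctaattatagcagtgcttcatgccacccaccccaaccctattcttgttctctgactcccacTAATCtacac
Pde6h (chr6:136954273-136954522, plus strand): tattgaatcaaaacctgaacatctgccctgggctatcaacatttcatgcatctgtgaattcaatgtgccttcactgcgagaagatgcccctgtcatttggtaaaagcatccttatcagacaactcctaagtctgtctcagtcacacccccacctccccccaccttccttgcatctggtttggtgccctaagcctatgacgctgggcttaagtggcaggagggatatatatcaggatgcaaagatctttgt
The motif occurred 3 times before Arr3, 1 time each before Opn1sw and Gnat2, and 0 times before Pde6h. It occurred on either strand in 19.8% of 32851 promoter windows of the same length. A match describes letters and is not evidence of binding, and RefSeq windows were matched for 6 of the 8 genes looked up, with Gngt2 and Rcvrn not matched.

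Opsins, which catch the photon, were among the genes that differed. Opn1sw, the short-wavelength opsin (chromosome 6, 29376671 to 29388468 in GRCm38), had 27 counts in 20 Pde6ccpfl1 wells and 0 in wildtype, 8.33-fold above the floor. A count of 0 in 52 wells allows a share of wells with a count of up to 5.77%, which does not limit the share of cells that express the gene. Opn1mw, the medium-wavelength opsin, had 21 counts in 15 Pde6ccpfl1 wells and 4 counts in 4 wildtype wells, a ratio of 4.86 (1.64 to 19.5). The highest well held 14.8% of the Pde6ccpfl1 counts of Opn1sw and 14.3% of those of Opn1mw.

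All 3 cone transducin subunits were higher in Pde6ccpfl1. Gngt2 (chromosome 11, 95837216 to 95845734) had 43 counts in 26 wells against 0, 13.3-fold above the floor. Gnat2 (chromosome 3, 108092789 to 108101432) had 20 counts in 14 wells against 0, 6.17-fold above the floor. Gnb3, the beta subunit, had 16 counts against 1, a ratio of 14.8 (2.30 to 621). Phosducin, encoded by Pdc and a binding partner of transducin beta-gamma, had 7 counts in 7 wells against 0, 2.16-fold above the floor.

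Of the effector, the mutated gene itself was almost uncounted. Pde6c (chromosome 19, 38132781 to 38183958) had 2 counts in Pde6ccpfl1, 0 in wildtype and 5 in Cnga3-/-, all near the floor, so no fold is given and whole-gene counts do not check the mutation. Pde6h, its inhibitory subunit (chromosome 6, 136923832 to 136968865), had 43 counts in 27 Pde6ccpfl1 wells and 16 counts in 9 wildtype wells, a ratio of 2.49 (1.37 to 4.73). Its annotated exons overlap those of another gene, as do those of Opn1sw and Gngt2, and whether counting used strand is not given.

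The channel gene went the other way, with most of its counts in 1 position. Cnga3 (chromosome 1, 37214434 to 37263384) had 3 counts in Pde6ccpfl1 and 22 in wildtype, a ratio of 0.13 (0.02 to 0.42). Well A06 held 2 of the 3 counts and 13 of the 22. That position held 1.24% of Pde6ccpfl1 counts and 3.72% of wildtype counts. Away from A06, then, Cnga3 had 1 and 9 counts.

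The genes that end the light response were split. Arr3 (chromosome X, 100605497 to 100618493) had 27 counts in 17 Pde6ccpfl1 wells and 3 counts in 2 wildtype wells, a ratio of 8.33 (2.56 to 42.9). Guca1a, a calcium sensor that activates guanylate cyclase, had 18 against 1 count, a ratio of 16.7 (2.63 to 694). Rcvrn, the calcium sensor recoverin, had 12 counts against 0, 3.70-fold above the floor. Gucy2e, the guanylate cyclase itself, had 17 against 19 counts, a ratio of 0.83 (0.40 to 1.68). Grk1, the opsin kinase, had 31 against 39 counts, and Gnb5, part of the complex that shuts off transducin, 44 against 25. The intervals of Gucy2e, Grk1 and Gnb5 included 1, and Grk1 and Gnb5 were tied to positions G07 and H10.

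The exchanger of the outer segment was nearer to equal. Slc24a2, the cone sodium-calcium-potassium exchanger, had 27 counts in Pde6ccpfl1 and 23 in wildtype, a ratio of 1.09 (0.60 to 1.98).

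**Figure D3:**
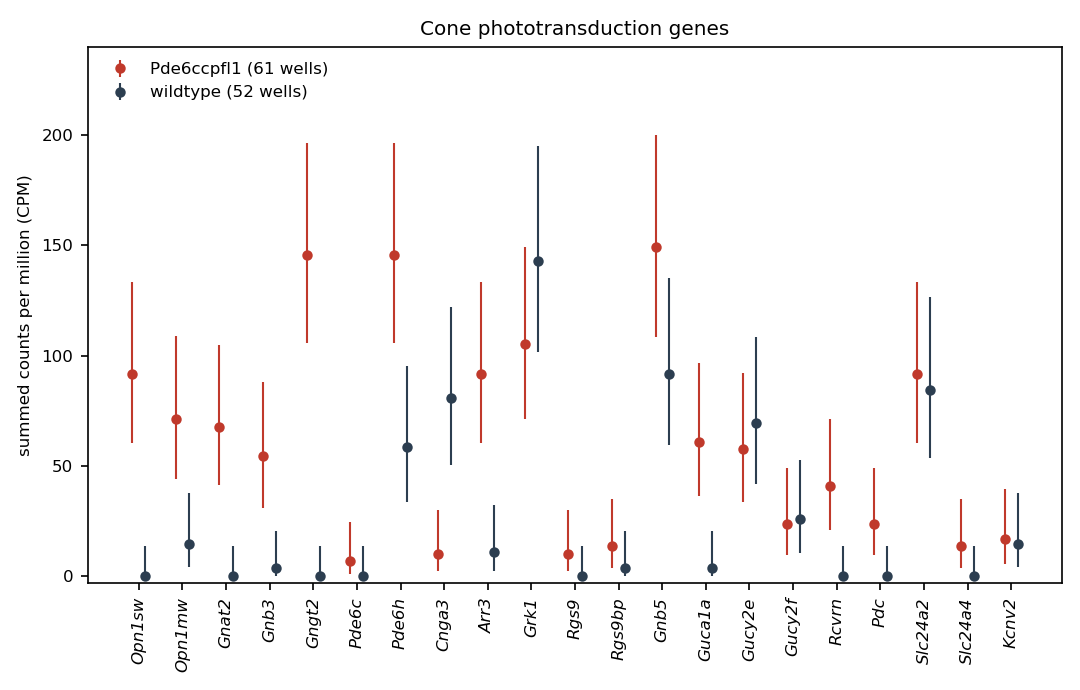
Summed CPM of cone phototransduction genes in the 61 Pde6ccpfl1 wells (red) and 52 wildtype wells (dark), with exact Poisson 95% intervals as bars. Opn1sw, Gnat2, Gngt2, Pde6c, Pdc and Rcvrn were among the genes with no wildtype count, and Grk1, Gucy2e and Slc24a2 among those whose intervals overlapped.

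As a list, cone phototransduction had 25 members, of which 23 had a count. Summed, they stood at a ratio of 1.96 (1.66 to 2.32), and at 2.58 (2.09 to 3.19) without the 3 members tied to a position. Of the 20 remaining members with a count, 17 were higher and 3 lower in Pde6ccpfl1, against 45.4% higher over all 18640 genes with a count that were not tied or could not be placed. Only 5 members met the count minimum for comparison, of which 1 was at least 2-fold higher and 0 lower, with a median log2 ratio of 0.70, beside 10.2% higher, 15.2% lower and a median of -0.16 over all compared genes.

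Rod genes were higher in the same plate. Pde6g, the rod inhibitory phosphodiesterase subunit, had 45 counts in Pde6ccpfl1 and 1 in wildtype, a ratio of 41.7 (7.10 to 1681). Gngt1, the rod transducin gamma subunit, had 16 against 1. Sag, rod arrestin, had 30 against 21 with an interval of 0.73 to 2.43, and Pde6a, a rod catalytic subunit tied to position F05, had 21 against 42. The 8 rod markers together had 159 and 62 counts, a ratio of 2.37 (1.76 to 3.24), and none of them was at 0 in both plates. A count of any rod marker was found in 46.3% of thinned Pde6ccpfl1 wells and 20.8% of thinned wildtype wells. Rod and cone genes thus moved with each other, and what part rod cells or free rod RNA had in this was not tested.

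By summed CPM, not scaled for the number or length of members, several lists of markers of other retinal cells were above the cone markers in wildtype. Horizontal cell markers stood there at 436 CPM, pigment epithelium markers at 220 CPM and Muller glia markers at 183 CPM, against 69.6 CPM for the 4 cone markers. Per kilobase of exon the 3 lists stood at 9.16, 10.3 and 5.37 CPM, against 4.62 CPM. Without 1 tied member each, horizontal cell and pigment epithelium markers stood at 110 and 29.3 CPM in wildtype. In Pde6ccpfl1, horizontal cell markers stood at 376 CPM against 451 CPM for the cone markers, or 7.91 against 29.9 CPM per kilobase. The 8 Muller glia markers had 22 counts in Pde6ccpfl1 and 50 in wildtype, a ratio of 0.41 (0.23 to 0.69), and were counted in 11.1% and 20.8% of thinned wells. Dkk3 had 0 against 7 counts and Glul, glutamine synthetase, 5 against 9, and Aqp4 was at 0 in both. Bipolar markers had 46 and 37 counts, amacrine markers 29 and 31, ganglion cell markers 27 and 17, microglia markers 12 and 8, astrocyte markers 39 and 22, endothelium and pericyte markers 31 and 32, and the interval of each ratio included 1. Horizontal cell markers had 111 and 119 counts, of which Onecut2, tied to F08, gave 70 and 89, and were counted in 35.2% and 37.5% of thinned wells. Pigment epithelium markers had 26 and 60 counts, a ratio of 0.40 (0.24 to 0.65), of which Mitf, also tied to F08, gave 22 and 52. What part such cells or their free RNA had in the values was not tested. Chrnb4, the gene in the name of the wildtype library, had 36 counts in Pde6ccpfl1 and 71 in wildtype. Its ratio was 0.47 (0.31 to 0.71), and it was tied to F07.

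The largest single differences included genes tied by the rule and genes not tied by it. A level spread over wells does not by itself set a gene apart from the position pattern. Kif23, tied to F01, was also counted in all 61 Pde6ccpfl1 wells, with a median of 14674 CPM. Smtnl1, a smoothelin-like protein of muscle (chromosome 2, 84811176 to 84822652), was the widest, with 8095 counts in Pde6ccpfl1 and 8 in wildtype. Its level ran from 14617 to 43616 CPM over the 61 Pde6ccpfl1 wells (median 26950), and from 0 to 390 CPM over the 52 wildtype wells (median 0), so the plates did not overlap. The ratio was 937 (475 to 2170). No well held more than 5.73% of its counts, and the Cnga3-/- plate had 2952 counts, with a count in 100% of wells. Il18, an inflammatory cytokine (chromosome 9, 50554827 to 50581840), was also spread over wells, at 2861 to 12444 CPM (median 6811) in Pde6ccpfl1 and 0 to 2963 CPM (median 1106) in wildtype. It was counted in 51 of 52 wildtype wells, and the plates overlapped between 2861 and 2963 CPM. Its ratio was 5.93 (5.28 to 6.67), and its Cnga3-/- count was 10085. Per-well CPM of Smtnl1 and Il18 did not follow depth in the Pde6ccpfl1 plate, with medians of 28287 and 6548 CPM in the shallower 31 wells and 26621 and 7136 CPM in the deeper 30. Their levels over wells did rise with that of Kif23, with Spearman's rank correlations of 0.57 and 0.51. For Themis3, Vwa3b and Kcnh7 the correlation with Kif23 was 0.11, 0.07 and 0.13. The cause was not tested.

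The other leading genes were tied to positions that the wildtype plate lacks. By the rule for named genes, 12 had the highest ratios. Kif23, Taok1 and Npepps were tied to F01, Themis3 and Olfr410 to G02, Gje1 and Twsg1 to E02, Olfr845 to H01, Zfp526 to H04 and Slc38a11 to F03, while Smtnl1 and Pvrig were not tied. Themis3 had 1839 counts against 12, with 49.9% of them at G02, and Olfr845, an olfactory receptor, had 488 against 0, with 54.5% at H01. Rora, a nuclear receptor that acts in cone opsin expression, had 566 counts against 60, a ratio of 8.73 (6.68 to 11.6), and was tied to G05, which is not among the kept wildtype wells. Its median CPM was 1353 in the Pde6ccpfl1 wells other than G05 and 172 in wildtype. Rora made up most of the list of photoreceptor transcription factors, whose ratio went from 4.09 (3.46 to 4.87) to 1.42 (1.09 to 1.84) without the 2 tied members.

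The genes at the low end showed the mirror image. Lhfp had 5 counts in Pde6ccpfl1 and 156 in wildtype, 41.7% of them at C07, and Wnt16, a secreted signal, had 4 against 105, 41.0% of them at C05. Neither position was kept in Pde6ccpfl1. Among the other genes at this end, Rnf32 and Zfp143 were tied to C05, and Nat3, Pdzd9, Vmn1r74, Taf1, Pgrmc2, Vmn2r108 and Gnpda2 had too few Cnga3-/- counts, with wildtype peaks at C05, B08 or C07.

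Separation of wells within plates was rarer than a 2-fold ratio. The interquartile ranges of per-well CPM lay apart for 26 genes higher in Pde6ccpfl1 (1.62%) and 34 lower (2.12%). Of the 26, 20 were tied to a position of the Pde6ccpfl1 plate alone and 5 were not tied, beside 165 and 239 of all 1600 compared genes. Of the 34, 24 were tied to positions kept in both, beside 1043 of the 1600. Hdhd2 peaked at A08 in both plates and still had a median of 3046 CPM in Pde6ccpfl1 and 6852 CPM in wildtype wells. Ank1, an ankyrin of the membrane skeleton, peaked at E11 in both, with medians of 2645 and 4185 CPM. Shroom2, which organises apical actin, and Cacna1a, a neuronal calcium channel, were not tied by the rule and yet peaked at A09 in both plates and at B06 in wildtype, with 14.8% and 15.7% of wildtype counts there.

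Genes that were not tied by the rule were picked out after their values were seen. Besides Smtnl1 and Il18, the named genes at least 2-fold higher were Pvrig, Tmsb10, Tpp1, Malat1, B3gnt9, Ccdc114, Cntn4, Atp5b, Vdac3, Rasgef1b, Pde6h, Cit, Ptprs, Kcnh7, Adcy1 and Ckap2l, and 4 predicted genes. Tmsb10, which binds actin monomers (chromosome 6, 72957347 to 72958748), had 148 counts in 50 of 61 Pde6ccpfl1 wells and 6 counts in 4 of 52 wildtype wells, a ratio of 22.8 (10.2 to 63.2). Malat1, an abundant nuclear RNA, had 165 counts in 51 of 61 wells against 22 in 13 of 52, 6.94-fold higher. Tpp1, a lysosomal peptidase, had 58 counts against 4, and Vdac3, a channel of the outer mitochondrial membrane, 57 against 16. Some of these genes had a large share of their counts in 1 well although not tied by the rule. In Pde6ccpfl1 it was 41.9% in Ccdc114 and 35.1% in Vdac3. In wildtype it was 57.9% in Ccdc114, 37.5% in Vdac3 and 63.6% in Atp5b. Kcnh7, a potassium channel, had 2274 against 975, with 28.0% of the Pde6ccpfl1 counts at G02 and 5254 against 2712 CPM in the median of the other wells.

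The 20 lower genes that were not tied were Slu7, Gmppb, Crip3, Kcnma1, Rapgef2, Musk, Dopey2, G3bp2, Cacna1a, Rnd1, Peli2, Celf2, Herc1, Fam135b, Qrsl1, Ganc, Ube2f, Ddhd2, Pkhd1l1 and 1 predicted gene. Their ratios ranged from 4.65-fold lower in Pkhd1l1 to 2.01-fold lower in Slu7. Qrsl1, a subunit of the mitochondrial glutaminyl-tRNA amidotransferase, had 50 counts in 49.2% of Pde6ccpfl1 wells and 157 in 82.7% of wildtype wells, 3.39-fold lower. Its highest wells held 8% and 10.2% of its counts. Several others had a large share of their wildtype counts in 1 well, at 54.5% in Rnd1, 50% in Dopey2, 46.7% in Ddhd2, 41.9% in Pkhd1l1 and 38.5% in Peli2, although they were not tied by the rule.

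**Figure D4:**
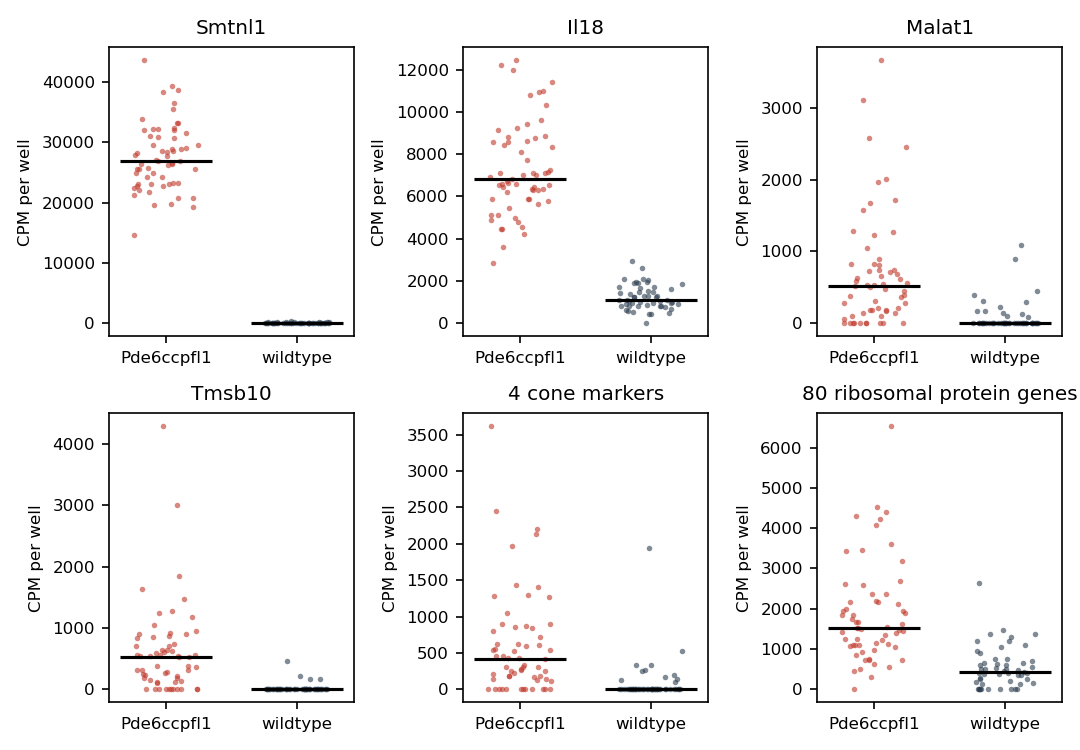
CPM per well of 4 genes that were not tied to a position, of the 4 cone markers and of 80 ribosomal protein genes, with each well as a point and the median as a bar. Smtnl1 does not overlap between plates, and for Tmsb10, Malat1 and the cone markers the wildtype median is 0.

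Genes of protein synthesis and respiration were higher in the Pde6ccpfl1 plate as groups, by summed counts. Few members met the count minimum for comparison. Of the 4 ribosomal protein genes that did, 0 were at least 2-fold higher and 1 lower. Of the 3 oxidative phosphorylation genes, 1 was higher and 1 lower, beside 10.2% and 15.2% over all compared genes. The 84 cytosolic ribosomal protein genes had 611 counts against 288, a ratio of 1.96 (1.70 to 2.27), and 2.86 (2.38 to 3.47) without the 4 tied members. Of the 73 others with a count, 64 were higher and 9 lower, against 45.4% higher over all untied genes with a count. Rpl10a had 24 counts against 6 and Rplp1 19 against 1, while Rpl5, tied to A09, had 27 against 60. Nuclear genes of oxidative phosphorylation had 610 counts against 316, a ratio of 1.79 (1.56 to 2.05), and 2.97 (2.48 to 3.57) without Uqcrh and Atp5s, which were tied. Of 73 others with a count 55 were higher and 18 lower, again beside 45.4% higher over all untied genes with a count. Among those higher were Cox6c (26 against 2), Cox8a (24 against 1) and Atp5b (42 against 11). Uqcrh, tied to B06, which the Pde6ccpfl1 plate lacks, had 36 against 111. Mitochondrially encoded genes, by contrast, had 194 and 186 counts, a ratio of 0.97 (0.79 to 1.19).

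Glycolysis genes stood at a ratio of 1.43 (1.18 to 1.74), and at 1.53 (1.21 to 1.94) without 3 tied members. Aldoa, an aldolase, had 13 counts against 1 and Gapdh 12 against 3, while Hk1, hexokinase, had 33 against 29. The actin and myosin list changed direction with its tied members, from 0.81 (0.75 to 0.87) with Myo6 and 5 other tied genes to 1.83 (1.54 to 2.19) without them. Tmsb10 gave 148 of the 384 remaining counts. Of the 34 remaining members with a count, 19 were higher and 15 lower, against 45.4% higher over all untied genes with a count.

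The ratios of several other lists changed when tied members were left out. The nuclear migration and microtubule motor list went from 14.1 (13.01 to 15.3) to 0.82 (0.69 to 0.97) without tied members such as Kif23, Kif5a and Dync1h1. Of the 35 others with a count 17 were higher (48.6%), near the 45.4% over all untied genes with a count. Kif5a, a neuronal kinesin, had 49 counts against 5 and was tied to H04, and Dync1h1, the dynein heavy chain, had 83 against 21 and was tied to C01. Cell division went from 34.9 (30.7 to 39.8) to 1.13 (0.91 to 1.40). Cell death went from 0.59 (0.55 to 0.64) to 0.98 (0.79 to 1.22) once Casp6 and Parp1, tied to A06 and C09, and 2 more members were left out. Adhesion and guidance stood at 0.90 (0.82 to 0.98) and at 0.78 (0.67 to 0.91) without 14 tied members, with 24 of 37 others lower, against 54.6% lower over all untied genes with a count. With median-of-ratios factors the full list stood at 1.00.

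Lists close to equal before and after were cyclic nucleotide and calpain signalling, at 1.09 (0.98 to 1.21) and 0.98 (0.85 to 1.12), and the retinoid cycle, at 1.04 (0.94 to 1.16) and 1.04 (0.69 to 1.56). ER stress and protein folding stood at 1.06 (0.94 to 1.21) and 1.28 (0.95 to 1.73), and the oxidative stress list, with no tied member, at 1.16 (0.86 to 1.59). Outer segment and cilium genes stood at 0.98 (0.88 to 1.10) and 1.20 (1.00 to 1.44), and ribbon synapse genes at 0.94 (0.83 to 1.07) and 1.25 (0.99 to 1.57). Abca4, the retinoid transporter of the outer segment, had 541 counts against 493 and peaked at F12 in all 3 plates. The injury and growth factor list stood at 2.39 (2.24 to 2.55), and Il18 alone held 2171 of its 3454 Pde6ccpfl1 counts. Without its 2 most counted members it stood at 1.28 (1.15 to 1.43), with 12 members higher and 17 lower over the whole list. Among its untied members 10 were higher and 16 lower, against 45.4% higher over all untied genes with a count. The muscle list stood at 5.92 (5.59 to 6.26) through Smtnl1, and at 0.69 without its 2 most counted members.

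**Figure D5:**
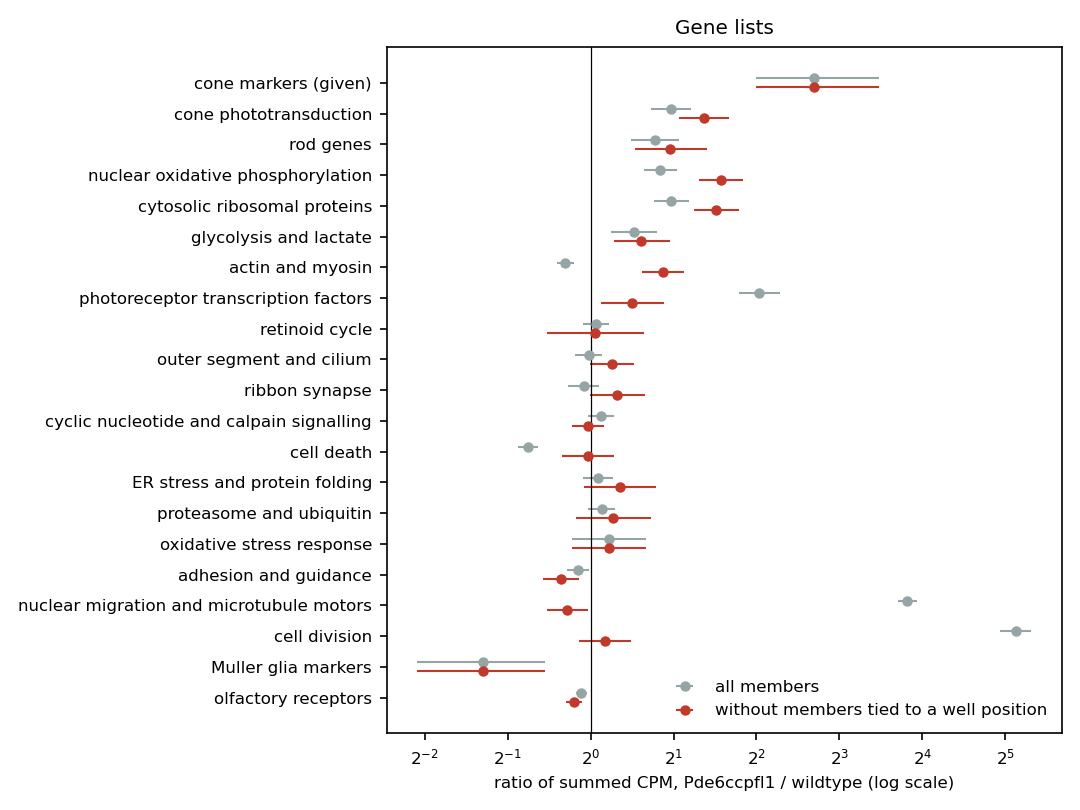
Ratio of summed CPM (Pde6ccpfl1 over wildtype, log scale) of 21 gene lists with exact 95% intervals, for all members (grey) and without members tied to a well position (red). The cone, ribosomal protein and oxidative phosphorylation lists stay above 1. Without tied members the nuclear migration list moves below 1, to 0.82, and the cell division list to 1.13, with an interval that includes 1.

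The Cnga3-/- plate is given beside these values with no overlap computed, since any comparison of it with wildtype shares the wildtype plate. The 4 cone markers had 103 counts there, or 307 CPM, between 451 CPM in Pde6ccpfl1 and 69.6 CPM in wildtype. Opn1sw had 63 counts in Cnga3-/-, 27 in Pde6ccpfl1 and 0 in wildtype, and Arr3 had 5, 27 and 3. Pde6g had 50, 45 and 1 counts, Tmsb10 66, 148 and 6, and Malat1 295, 165 and 22. The Cnga3-/- plate kept 61 positions in common with the Pde6ccpfl1 plate and 50 in common with wildtype, and 85.4% and 87.4% of the genes with enough counts peaked at the same position in those pairs.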

How the data were processed

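Single GFP-positive cells were counted in 3 plates, of which 2 are compared. The deposited values are raw counts per gene and well for 31053 genes, made with featureCounts per the submitters' processing notes, which also name the genome build GRCh38. That build is human and the symbols are mouse, so positions and exon lengths came from GENCODE M21 (GRCm38), where 97.9% of symbols had 1 match, and promoters from RefSeq (GRCm38.p6). The aligner, the use of molecular identifiers and strand are not given in the sources used here. Doublets were not called, since a well was meant to receive 1 sorted cell, which was not checked.

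Counts of kept wells were summed per plate. CPM has an exact Poisson interval and a ratio an exact binomial interval given the summed count. With 1 plate per genotype no p-value was computed, and at least 2-fold describes size. Scripts were tested on simulated wells without peaks at shared positions or added spread between wells. That test therefore does not cover the position pattern of these plates. Genes named were the 12 highest and 12 lowest ratios, the 12 largest differences each way among genes with separate quartiles, the targeted and marker genes, and up to 4 members of each of 34 lists. Members and lists were chosen with earlier results of these data known. Well positions were examined after seeing the data. Results of some withheld genes are not reported here. Python 3.11.15, numpy 2.4.6, pandas 2.3.3, scipy 1.17.1 and edgeR 4.0.16 (TMM factors) were used. Alternatives covered the filter on wells, depth, scaling, gene filters and position.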

Additional observations from a re-analysis of the deposited data

Results flagged for a closer look

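The 10 Pde6ccpfl1 wells left out by the filter on genes and mitochondrial counts, which enter no comparison above, held counts of the same genes. Kif23 stood there at 15767 CPM and Smtnl1 at 31656 CPM, with a count in all 10 wells, beside 30531 and 27440 CPM in the kept wells, against 0 counts of either in the 9 wildtype wells left out. The 4 cone markers stood at 1577 CPM (840 to 2696), from 13 counts in 4 of the 10 wells, beside 451 CPM (377 to 534) in the kept wells, against 1 count in the wildtype wells left out. The left-out wells held 8245 and 7174 counts in all, so these values rest on few counts for the cone markers.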

How the results depend on the processing

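No paired analysis was possible because there is 1 library per genotype and the labels give no shared replicate. The summed ratio of the cone markers kept its direction in all 9 alternatives. Genes at least 2-fold higher and lower numbered 38 and 41 with wells thinned to 1400 counts, where 326 genes were compared, 351 and 511 with a gene filter of 10 counts, and 35 and 39 with one of 200 counts. With only the 43 well positions kept in both plates, chosen after seeing the data as all position settings were, they numbered 80 and 160. They numbered 10 and 149 among genes tied to a position kept in both plates, and 22 and 20 among genes not tied. With a minimum share of 10% or 30% for a tie, 132 of 191 and 118 of 142 genes tied to a position of the Pde6ccpfl1 plate alone were at least 2-fold higher, and 13 higher and 3 lower of 94, or 37 and 49 of 444, were not tied, so the lists of genes that were not tied depend on that share. Genes with separate quartiles numbered 45 higher and 54 lower with wells of at least 1000 genes and at most 15% mitochondrial counts, 7 and 7 after thinning, 0 higher among genes tied to a position kept in both, and 5 and 4 among genes not tied. The share of wells with a cone marker was 80.3% in Pde6ccpfl1 without thinning, and 4.65% in wildtype without the 5 deepest wells. Median-of-ratios factors moved the median log2 ratio of compared genes from -0.16 to 0.00, so the side of 1 on which a ratio near 1 falls depends on the scaling.

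Lists that changed side are given here where the main interval excluded 1. Others changed side too, such as ribbon synapse genes, from 0.94 to 1.25 without tied members. Nuclear migration and microtubule motors went to 0.82 without tied members, and muscle to 0.69 without its 2 most counted members. Actin and myosin went to 1.02 as the mean over wells, 1.83 without tied members and 1.80 without its 2 most counted members. Adhesion and guidance went to 1.00 with median-of-ratios factors. Olfactory receptors went to 1.05 without the 5 deepest wells, 1.02 after thinning, 1.01 as the mean over wells, 1.04 with median-of-ratios factors and 1.13 without the 2 most counted members. Where tied members were not the ones left out, the cause was not tested. For single genes, 1015 of the alternative values lay inside the main counting interval and 119 outside it, with none on the other side of 1 where the interval excluded 1.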
